A study of Mus musculus with 5 samples.

Results

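The 10 genes described here encode proteins that join the actin cytoskeleton to integrins, and the non-muscle myosin II heavy chains that pull on it. They are Myh9, Myh10, Actn1, Actn4, Vcl, Tln1, Tln2, Zyx, Ilk and Pxn, taken by name from the 24062 genes of the deposited count table. All 10 had enough reads to be tested, among 14244 genes that did. At a focal adhesion, talin binds the tail of an activated integrin and an actin filament, vinculin reinforces that link under load, and paxillin and integrin-linked kinase (ILK) gather signalling and adaptor proteins. Alpha-actinin cross-links the filaments, zyxin moves to stretched or damaged ones, and non-muscle myosin II slides them past each other. Valve interstitial and endothelial cells use this machinery to hold and tension the leaflet matrix. In heart muscle cells, talin and vinculin also sit at costameres and intercalated discs.

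RNA came from mitral valve leaflets of mice, and the comparison asks how loss of Ift88, a gene of the ciliary transport machinery, alters leaflet transcripts. By their titles 2 libraries are wild type (WT) and 3 are knockout (KO). All 5 carry NfatC1Cre(+), a Cre driver of the endocardial lineage, so cells of other origin can retain Ift88. The genotype label of the WT group reads Ift88f/f and that of the KO group Ift88+/+, which is the opposite of what the titles say. Levels are given as CPM, the reads of a gene relative to all reads of its library, scaled between libraries by the trimmed mean of M values (TMM). Ift88 itself went with the titles, at 7.54 and 19.8 CPM in WT replicates 1 and 2, against 3.0, 3.92 and 0.409 in KO replicates 1 to 3. Age and sex are not among the labels, and no label says that the libraries are separate animals, so p-values measure the spread between these libraries only.

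Libraries held between 23361414 and 53789026 counted reads, and the WT libraries stood apart from each other in cell type markers. The 9 cardiomyocyte markers, among them Tnnt2, Myh6 and Actc1, summed to 48400 CPM in WT replicate 1 but only 82.2 in WT replicate 2, where Mb had no read. In the KO libraries they summed to between 21000 and 29200. Actc1 alone stood at 31300 CPM in WT replicate 1 and between 14300 and 17600 in KO. Against WT replicate 1, Myh6 and Ttn were higher in every KO library. Actc1, Tnnt2, Tnni3, Mb and Pln were lower there, and Myh7 and Ryr2 were mixed. Myh6 stood at 583 CPM in WT replicate 1 and between 1310 and 2460 in KO, and Pln at 4490 and between 218 and 1840. The 7 endothelial markers summed to 220 CPM in WT replicate 1, to 2000 in WT replicate 2 and to between 1480 and 2060 in KO. The 8 interstitial markers summed to 2760 and 7760 CPM in WT and to between 7940 and 11500 in KO. Their log2 fold changes of KO against WT ran from 3.08 for Col1a1 to -0.03 for Pdgfra. Postn had 1.73, Vim 0.27 and Lum 0.08. The 6 smooth muscle markers summed to 2270 and 650 CPM in WT and to between 1330 and 3010 in KO, with Myh11 at 0 in WT replicate 2 and KO replicate 1. The 6 macrophage markers summed to between 113 and 244 CPM over all 5 libraries, and the 5 platelet markers to 25.4 and 239 CPM in WT and between 24.1 and 73.6 in KO. The 5 erythroid markers, 4 of them without a read in any library, summed to 92.7 and 2.6 CPM in WT and to between 0 and 34.7 in KO. The 4 adipocyte markers summed to 556 and 36 CPM in WT and to between 183 and 210 in KO, but 2 of them had no read and nearly all of the sum was Fabp4, which endothelial cells also make. Heart muscle transcripts were thus abundant in 4 of the 5 libraries. In such bulk samples fewer cells of a type and less RNA per cell cannot be told apart.

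**Figure D1:**
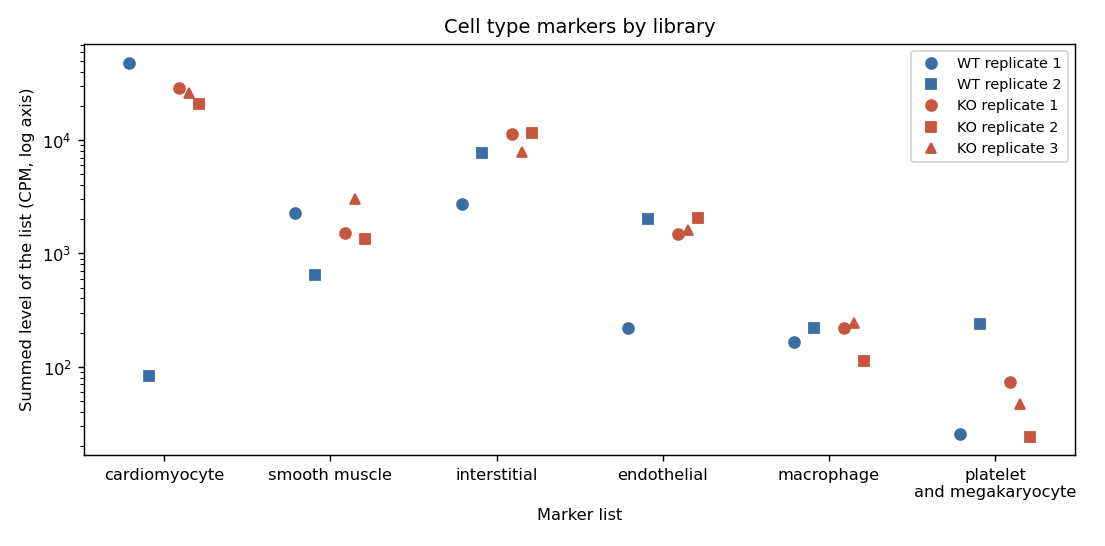
Summed level of 6 cell type marker lists in each library, as TMM-scaled CPM (log axis). Each point is 1 library and no error is drawn. WT replicate 2 lies at 82.2 CPM for cardiomyocyte markers, far below the other 4 libraries, and WT replicate 1 lies at 220 CPM for endothelial markers, below the other 4.

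Of the 10 genes, 9 had a positive fold change in KO against WT and 6 did not overlap between the groups, all 3 KO libraries lying above both WT libraries. These 6 were Myh9, Myh10, Vcl, Tln1, Tln2 and Zyx, and 0 of the 10 lay below WT in all 3 KO libraries. Over all genes tested 13.5% lay above in this way, 11.1% lay below and 49.4% had a positive fold change. The median log2 fold change of the 10 was 1.03, against -0.01 for all genes. The 9 positive fold changes included 3, those of Actn1, Actn4 and Pxn, that turned negative without WT replicate 1. No gene of the set passed the edgeR quasi-likelihood test over all genes (smallest adjusted p = 0.81), and neither did any other gene (0%). Over all genes 832 had an unadjusted p under 0.05, DESeq2 called 376, limma-voom 0, and edgeR without WT replicate 1 called 245, none of the set among them. At an unadjusted p under 0.05 there were 5 of the 10, all higher in KO, where 4.57% of all genes were. DESeq2 called 1 of the 10, Myh10, where it called 376 of 17148 genes over all. The authors' deposited table also calls only Myh10 of the 10, and 1.36% of its genes with an adjusted p are called higher.

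**Figure D2:**
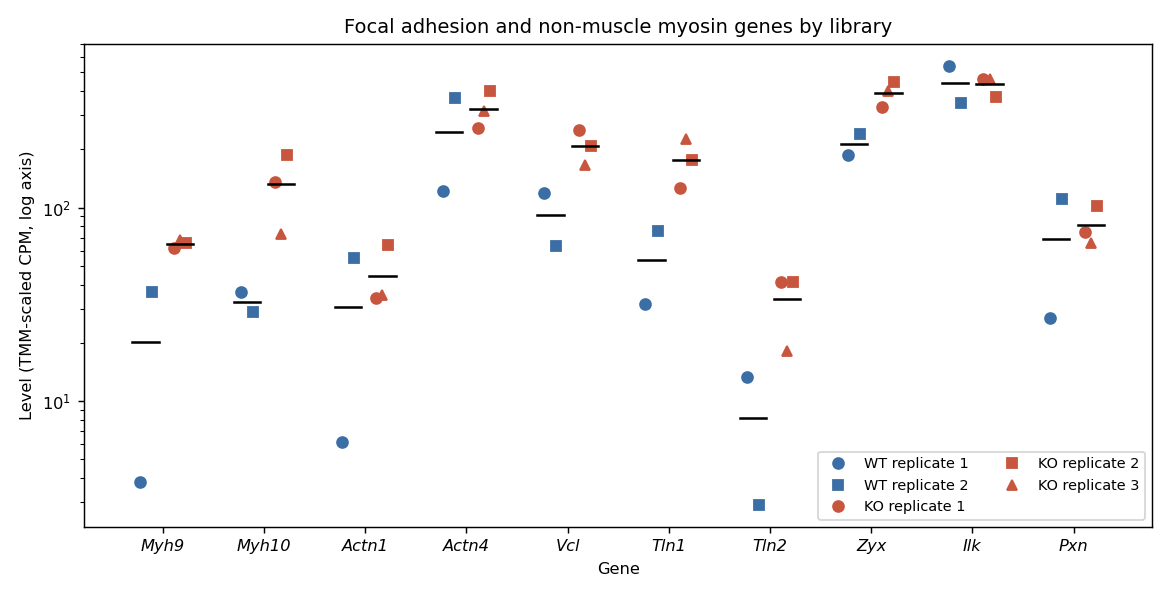
Level of the 10 genes in each library, as TMM-scaled CPM (log axis). Each point is 1 library, black lines show the group means and no error is drawn. All KO points lie above both WT points for Myh9, Myh10, Vcl, Tln1, Tln2 and Zyx, and the groups overlap for Actn1, Actn4, Ilk and Pxn.

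Per kilobase of transcript, Ilk was the most abundant of the set, with a mean level of 192 CPM per kb ± 34.3 (SD, n = 5 libraries), followed by Zyx at 100 ± 33.7 (SD, n = 5) and Actn4 at 75.6 ± 28.3 (SD, n = 5). Vcl stood at 30.6 CPM per kb, Pxn at 20.3, Tln1 at 15.1, Myh10 at 11.8, Actn1 at 10.4, Myh9 at 6.33 and Tln2 at 1.93. Ilk exceeded Zyx, Actn4 exceeded Vcl and Actn1 exceeded Myh9 in 5 of 5 libraries. The other neighbours in that order changed places in at least 1 library. Tln1 exceeded Myh10 in only 2 of 5 libraries and Myh10 exceeded Actn1 in 3, so the middle of the order is not resolved. The order of the group means also differed, but the WT libraries did not share the order of their means. By WT means Pxn (18.4 CPM per kb) stood above Vcl (17.3), and Actn1 (8.19) above Tln1 (6.42) and Myh10 (4.2). By KO means Vcl (39.5) stood above Pxn (21.5), and Tln1 (21.0) and Myh10 (16.9) above Actn1 (11.9). The order by WT means was that of WT replicate 2, with Pxn at 29.6, Vcl at 12, Actn1 at 14.7, Tln1 at 9.05 and Myh10 at 3.71. In WT replicate 1 Vcl (22.5) exceeded Pxn (7.17), and Tln1 (3.78) and Myh10 (4.69) exceeded Actn1 (1.64), as by KO means. Lengths are those of the longest annotated transcript, which may not be the isoform made in the leaflet. Stretches shared with genes on the opposite strand, given below, were left in these lengths.

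The 2 non-muscle myosin II heavy chain genes lay above WT in all 3 KO libraries, and their WT values were unlike. Myh10, which encodes heavy chain IIB, lies on chromosome 11 (68691559 to 68816632, plus strand, GRCm38) and has 41 exons in a transcript of 7791 nt. Its levels were 36.5 and 28.9 CPM in WT replicates 1 and 2, against 136, 186 and 73.3 in KO replicates 1, 2 and 3. Both WT libraries were low, and the lowest KO library was 2.01 times the higher of them. The group means were 32.7 ± 5.39 CPM (SD, n = 2) and 132 ± 56.6 (SD, n = 3). Its log2 fold change of 2.01 (standard error, SE, 0.50) had the smallest p of the set (unadjusted p = 0.00649 and adjusted p = 0.81, edgeR). DESeq2 gave 1.94 (adjusted p = 0.0236), and the authors' deposited table has 1.62 (adjusted p = 0.0395). With either WT library left out it was 1.85 or 2.16.

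Myh9, which encodes heavy chain IIA, the myosin whose mutations cause giant-platelet disorders in humans, lies on chromosome 15 (77760587 to 77842175, minus strand) and has a transcript of 7433 nt. It stood at 3.81 CPM in WT replicate 1, from 100 reads, and at 36.6 in WT replicate 2, from 2111 reads. In KO replicates 1, 2 and 3 it was 61.9, 65.3 and 67.8 CPM. The KO libraries were thus within 1.1-fold of each other while the WT libraries differed 9.61-fold. The log2 fold change was 1.68 (SE 0.90, adjusted p = 0.823, edgeR), rising to 4.09 if WT replicate 2 was left out and dropping to 0.80 if WT replicate 1 was. WT replicate 1 is also the library with the fewest endothelial and interstitial marker reads, whose part in the Myh9 value was not tested. Platelet markers summed to 25.4 and 239 CPM in WT replicates 1 and 2 and to 73.6, 24.1 and 46.6 in KO replicates 1, 2 and 3, and their part was not tested either.

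Both talin genes lay above WT in all 3 KO libraries. Tln1, which encodes the talin of most cell types, is on chromosome 4 (43531519 to 43562691, minus strand) with 57 exons in a transcript of 8393 nt. It stood at 31.7 and 76.0 CPM in WT replicates 1 and 2, against 126, 176 and 227 in KO replicates 1, 2 and 3. The lowest KO library was 1.65 times the higher WT library. Its log2 fold change was 1.71 (SE 0.52, unadjusted p = 0.0157 and adjusted p = 0.81, edgeR), 1.18 without WT replicate 1 and 2.47 without WT replicate 2.

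Tln2, which encodes the talin abundant in striated muscle and brain, is on chromosome 9 (67217087 to 67559703, minus strand) and has the longest transcript of the set, 12132 nt. Its levels were 13.4 and 2.91 CPM in WT replicates 1 and 2, the latter from 168 reads, and 41.3, 41.3 and 18.1 in KO replicates 1, 2 and 3. WT replicate 2 was the lowest by far, and KO replicate 3 lay closest to WT. The log2 fold change was 2.05 (SE 0.83, unadjusted p = 0.0469 and adjusted p = 0.81, edgeR), which became 3.50 without WT replicate 1 and 1.33 without WT replicate 2. Cardiomyocyte markers were also lowest in WT replicate 2. In the KO libraries their sums were below that of WT replicate 1, while the Tln2 levels were above its level. The part of these cells in the Tln2 values was not tested.

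Vcl, which encodes vinculin, is on chromosome 14 (20929398 to 21033676, plus strand) with 21 exons in a transcript of 5267 nt. It stood at 119 and 63.4 CPM in WT replicates 1 and 2, against 251, 208 and 166 in KO replicates 1, 2 and 3, with no overlap. The log2 fold change was 1.19 (SE 0.42, unadjusted p = 0.0282 and adjusted p = 0.81, edgeR), 1.69 without WT replicate 1 and 0.81 without WT replicate 2. As for Tln2, the lower WT value was in the library nearly without cardiomyocyte markers (82.2 CPM). The higher was in the library where these markers had the highest sum (48400 CPM). In the KO libraries the marker sums, between 21000 and 29200 CPM, were below that of WT replicate 1, while the Vcl levels were above its level. The part of heart muscle cells in the Vcl values was not tested. Over all annotated transcripts of each gene, not only the longest, exons of Vcl and of Ap3m1 on the opposite strand share 2090 nt. The kit does not mark strand. Ap3m1 had a log2 fold change of 0.16, with levels between 114 and 160 CPM.

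Zyx, which encodes zyxin, is on chromosome 6 (42349630 to 42360213, plus strand) with 11 exons in a transcript of 3188 nt. Its levels were 187 and 239 CPM in WT replicates 1 and 2, against 332, 445 and 399 in KO replicates 1, 2 and 3. The WT libraries were within 1.28-fold and the KO libraries within 1.34-fold of each other, and the lowest KO library was 1.39 times the higher WT library. The means were 213 ± 36.8 CPM (SD, n = 2) and 392 ± 56.7 (SD, n = 3). KO exceeded WT by 0.88 on the log2 scale (SE 0.34, unadjusted p = 0.039 and adjusted p = 0.81, edgeR). It stayed between 0.68 and 1.07 with either WT library left out.

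The alpha-actinin genes of non-muscle cells overlapped between the groups. Actn4 (chromosome 7, 28893248 to 28962340, minus strand) stood at 122 and 369 CPM in WT replicates 1 and 2, against 259, 400 and 315 in KO replicates 1, 2 and 3. Actn1 (chromosome 12, 80167547 to 80260371, minus strand) had 6.13 and 55.1 CPM in WT against 34.1, 64.2 and 35.3 for KO. In both, WT replicate 1 was the lowest library and WT replicate 2 lay within the KO range. The log2 fold changes were 0.40 (SE 0.53) and 0.54 (SE 0.89), and neither passed (adjusted p = 0.942 and 0.96, edgeR). Without WT replicate 1 they turned to -0.22 and -0.34, and without WT replicate 2 they were 1.41 and 2.86.

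Pxn, which encodes paxillin, is on chromosome 5 (115506676 to 115555987, plus strand). It had 27 and 111 CPM in WT replicates 1 and 2, against 75, 102 and 65.7 in KO replicates 1, 2 and 3. The highest and the lowest library were thus both WT. Its log2 fold change of 0.23 (SE 0.62, adjusted p = 0.984, edgeR) turned to -0.49 with WT replicate 1 left out and was 1.59 with WT replicate 2 left out. Of the 45 pairs of genes in the set, Actn4 and Pxn had the closest profiles over the 5 libraries, at a root mean square distance of 0.206 in centred log2 CPM.

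Ilk, which encodes the scaffold pseudokinase of integrin tails, is on chromosome 7 (105736592 to 105742925, plus strand). It stood at 540 and 346 CPM in WT replicates 1 and 2, against 463, 372 and 463 in KO replicates 1, 2 and 3, so that all KO values lay between the WT values. The log2 fold change was -0.03 (SE 0.36, adjusted p = 0.995, edgeR), and its sign turned under 5 of the 12 alternative settings, within a range of -0.37 to 0.29. Over the exons of all annotated transcripts, Ilk shares 2106 nt with Taf10 and 355 nt with Rrp8, both on the opposite strand. Reads of these stretches cannot be assigned without strand, and the part of them within the longest transcript was not measured. Counted in the same way, the stretches that Actn4, Tln1 and Zyx share with Capn12, Creb3 and Epha1 on the opposite strand are 316, 360 and 236 nt. Taf10 had between 14.5 and 110 CPM and Rrp8 between 29.2 and 68.6.

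Larger fold changes in the set went with longer transcripts. Over the 10 genes Spearman's rho between length and log2 fold change was 0.88 and Pearson's r 0.90, given as a description, since all points share the same 5 libraries. The 4 genes over 6 kb (Myh9, Myh10, Tln1 and Tln2) had a median log2 fold change of 1.86, Vcl between 4 and 6 kb had 1.19, and the 5 of 2 to 4 kb had a median of 0.40. The same order held over all genes. The median log2 fold change was 0.82 for the 1988 tested genes over 6 kb, 0.26 for those of 4 to 6 kb, -0.11 for those of 2 to 4 kb and -0.44 for those up to 2 kb. Of genes over 6 kb 34.3% lay above both WT libraries in all 3 KO libraries, as did 18.3% of those of 4 to 6 kb and 8.89% of those of 2 to 4 kb. In the set these counts were 4 of 4, 1 of 1 and 1 of 5.

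With each library's trend of level with length removed, the 10 genes all had positive fold changes and their median was 0.67, against -0.11 for all genes. The groups then did not overlap for 2 of the 10, Myh10 and Zyx, where 9.28% of all genes lay above. Myh10 stood at 54.6 and 37.2 CPM in WT against 103, 110 and 60.1 for KO on that scale, with a log2 fold change of 0.99. The fold change of Zyx went from 0.88 to 0.84, that of Tln2 from 2.05 to 0.67, Tln1 from 1.71 to 0.75, Myh9 from 1.68 to 0.89 and Vcl from 1.19 to 0.67. At an unadjusted p under 0.05 in edgeR there was then 1 of the 10, Zyx, and 614 of all genes, of which 0 passed after adjustment.

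**Figure D3:**
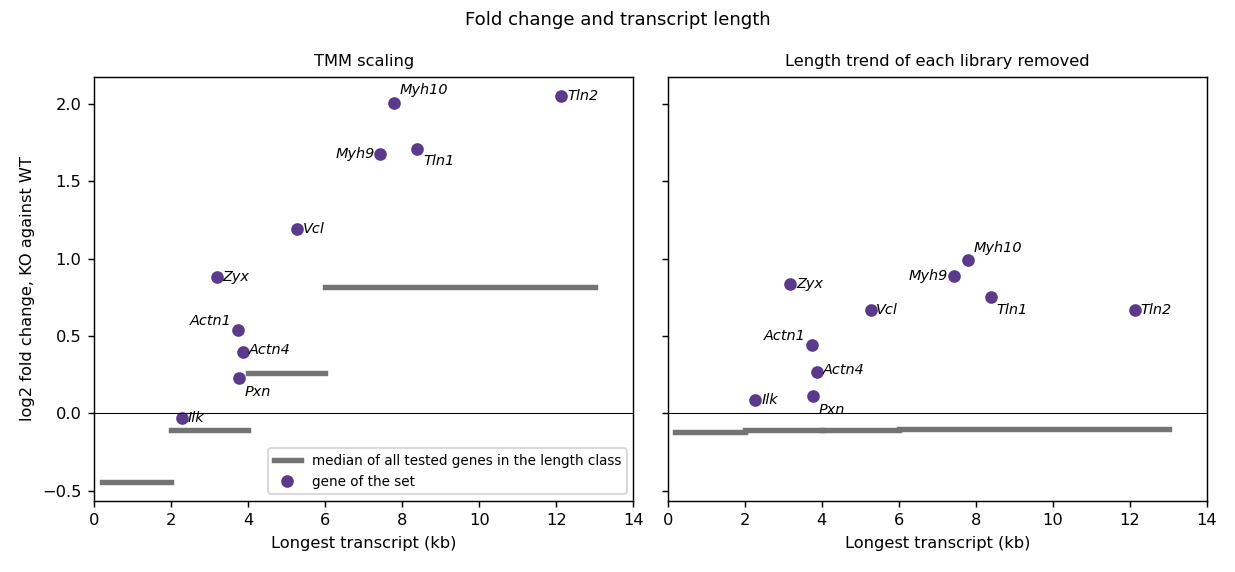
log2 fold change of each gene against the length of its longest transcript in kb, with TMM scaling (left) and with the length trend of each library removed (right). Points are the 10 genes and grey bars are medians of all tested genes in 4 length classes. At left both the points and the bars climb with length, to 0.82 for the bar over 6 kb, and at right the bars are level near -0.11 while the points lie between 0.09 and 0.99.

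The WT libraries disagreed on many of these genes, and not in 1 direction. The lowest library was WT replicate 1 for 6 of the 10 genes (Myh9, Actn1, Actn4, Tln1, Zyx and Pxn) and WT replicate 2 for the other 4 (Myh10, Vcl, Tln2 and Ilk). The WT libraries differed more than 2-fold for 6 genes, and the KO libraries for 2, Myh10 and Tln2. Such WT differences were common over all genes. Among 12540 tested genes with a read in both WT libraries, the median absolute log2 ratio between them was 0.91, where 1 is 2-fold. Without WT replicate 1 the fold change was positive for 7 genes and 7 lay above the remaining WT library in every KO library, where 27.5% of all genes did. Without WT replicate 2 the counts were 9 and 9, with 30.6% of all genes above. In the levels given above, Pxn lay below WT replicate 2 in every KO library, and Ilk lay below WT replicate 1. The shares of all genes below were not computed for these comparisons. Each of these comparisons holds 1 WT library, so fewer values had to be separated. Myh10, Vcl, Tln1, Tln2, Zyx and Myh9 had positive fold changes in both.

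**Figure D4:**
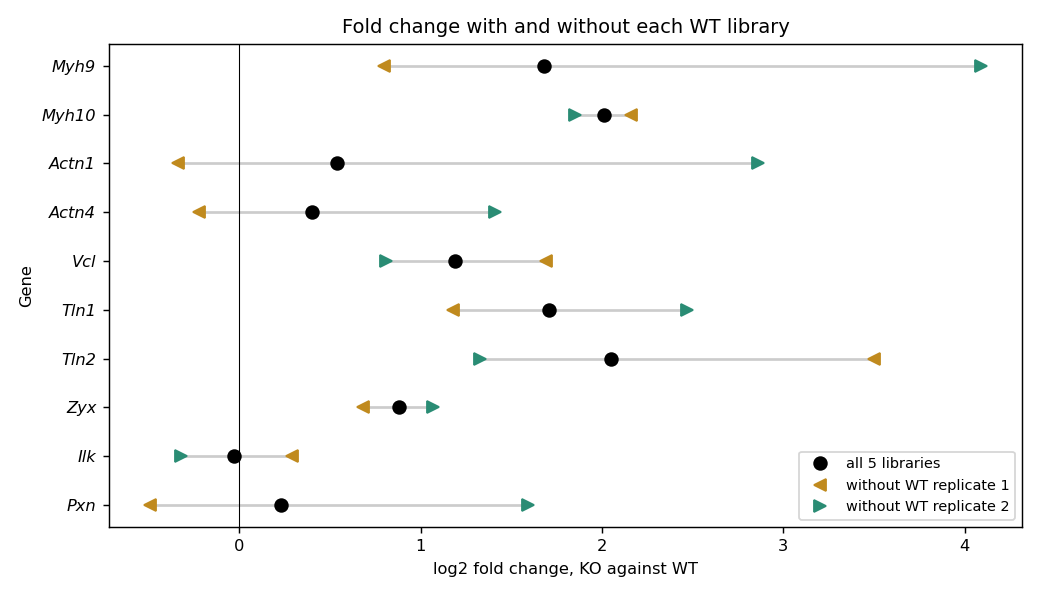
log2 fold change of KO against WT for each gene with all 5 libraries (circles), without WT replicate 1 (left-pointing triangles) and without WT replicate 2 (right-pointing triangles). Zyx and Myh10 span the shortest ranges among the genes above 0, Myh9 runs from 0.80 to 4.09, and Actn1, Actn4 and Pxn cross 0.

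Within a library, the balance of a gene and its paralog does not depend on a scale factor that all genes share. It can depend on the length trend, whose removal differs by gene length, and it was not computed with that trend removed. Per length, Myh9 made up 9.84% and 57.0% of the Myh9 and Myh10 sum in WT replicates 1 and 2 and 32.3, 26.9 and 49.2% in KO replicates 1, 2 and 3. Tln1 made up 77.4 and 97.4% of talin transcripts in WT and 81.5, 86.0 and 94.8% in KO. Actn1 made up 4.96 and 13.4% of the Actn1 and Actn4 sum in WT and 12, 14.3 and 10.4% in KO. Tln1 and Actn4 were thus the major paralogs in all 5 libraries, whereas Myh10 was the major heavy chain in 4 and Myh9 in WT replicate 2. For Myh9 and for Tln1 the KO shares lay between the WT shares. The differences in mean log2 ratio were 0.54, -0.53 and 0.62 in this order, and none passed (exact two-sided permutation p = 0.8, 0.8 and 0.6, adjusted p = 0.8 for each of the 3 pairs, smallest p possible 0.2). Each changed sign with 1 WT library left out. Of the 2 muscle alpha-actinins 0 passed. Actn2 had 1840 and 5.62 CPM in WT against 1470, 1070 and 1910 for KO, following the cardiomyocyte markers. Actn3 had 2.4 and 0.537 CPM in WT and no read in KO. Myh14, the third non-muscle heavy chain, had no read in WT and 3.19, 1.46 and 0 CPM in KO.

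**Figure D5:**
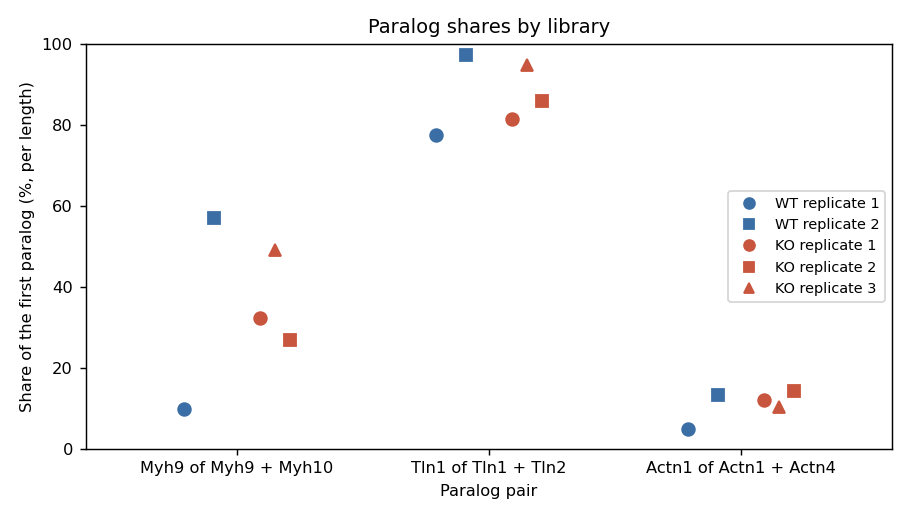
Share of Myh9 in Myh9 plus Myh10, of Tln1 in Tln1 plus Tln2 and of Actn1 in Actn1 plus Actn4 in each library, in percent of length-scaled reads; each point is 1 library and no error is drawn. The WT replicates lie at 9.84 and 57.0% for Myh9 and the 3 KO replicates between them, and Actn1 stays at or under 14.3% in all 5 libraries.

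The promoters of Vcl and Myh9 are shown because, among the genes whose groups did not overlap, their windows hold no exon in GENCODE. Many cytoskeletal genes are known targets of serum response factor, which binds the CArG box, and of TEAD factors. Each sequence is the 250 bases before a RefSeq start in GRCm38.p6, written 5′ to 3′ on the gene's strand. Capitals mark a CArG box, GGAATG (the TEAD element), TGANTCA (a looser form of the AP-1 element, with any middle base) or GGGCGG (the Sp1 element). Either strand was searched, and runs of capitals can hold overlapping matches. They are chr14:20929148-20929397 on the plus strand and chr15:77842176-77842425 on the minus strand.
Vcl: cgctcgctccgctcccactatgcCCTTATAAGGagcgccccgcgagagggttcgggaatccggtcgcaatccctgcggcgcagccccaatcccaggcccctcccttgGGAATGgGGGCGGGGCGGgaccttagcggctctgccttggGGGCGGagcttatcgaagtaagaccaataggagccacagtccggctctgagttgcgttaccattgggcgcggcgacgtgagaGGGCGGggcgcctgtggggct
Myh9: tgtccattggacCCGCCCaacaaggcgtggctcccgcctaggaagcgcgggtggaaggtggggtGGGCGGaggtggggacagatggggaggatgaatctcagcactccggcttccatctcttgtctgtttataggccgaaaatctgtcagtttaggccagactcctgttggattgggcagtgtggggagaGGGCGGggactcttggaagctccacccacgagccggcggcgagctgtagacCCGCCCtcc

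Among the 8 genes of the set with an entry, a CArG box was found before 1, Vcl, where it begins 227 bases before the start. It was found in 1.47% of 32851 promoter windows of the same length. GGAATG was found before 3 of the 8 (Actn4, Myh10 and Vcl) against 12.6% of windows, TGANTCA before 2 (Zyx and Actn4) against 6.75%, and GGGCGG before 6 against 32.7%. The TGANTCA match read TGAGTCA in Zyx and TGAATCA in Actn4. In Ilk, GGGCGG was found only in the window of its second start. A RefSeq start can lie downstream of the GENCODE start of the gene, so some windows are not upstream of it. That of Myh10 lies wholly inside the gene, and 198 of the 250 bases of that of Zyx do. These are matches of letters and do not show that a factor was bound.

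Partners of these proteins, in 4 lists, were also examined, and 0 of their 56 tested genes passed (edgeR, adjusted p = 0.81 or above). At an unadjusted p under 0.05 there were 7, all higher in KO, where 4.57% of all genes were. Of the 56 genes 44 were positive and 14 lay above WT in all 3 KO libraries, against 49.4% and 13.5% of all genes, and 2 lay below, against 11.1%. Transcripts over 6 kb, of which 34.3% lay above over all genes, made up 12 of the 56, and 5 of these 12 lay above. The median log2 fold change of the 56 was 0.56, or 0.36 with the length trend removed. limma-voom called 0 of them and DESeq2 called 1, Enah, where DESeq2 called 376 of 17148 genes over all. Of 8 tested genes of the ILK, PINCH, parvin and kindlin group 4 were positive, with a median log2 fold change of 0.02, and 1 lay above WT in all 3 KO libraries. That was Parva, which encodes the parvin that links ILK to actin, at 157 and 117 CPM in WT against 208, 349 and 299 for KO (log2 fold change 1.06, SE 0.38). With the length trend removed it was 0.39. Fermt3, the kindlin of blood cells, stood at 10.4 and 47.1 CPM in WT against 12.5, 9.98 and 11.8 for KO, a log2 fold change of -1.33 (SE 0.70) that turned to 0.13 when WT replicate 2 was left out. In this group Lims2 was the 1 gene below WT in all 3 KO libraries.

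Among 16 genes of focal adhesion kinase and its adaptors 13 were positive, with a median of 0.38, 3 lay above WT in all 3 KO libraries and 1, Crk, below, beside 13.5% and 11.1% of all genes. Nedd9, a docking protein of the p130Cas family, had 31.7 and 36.0 CPM in WT against 68.1, 119 and 86.3 for KO (log2 fold change 1.43, SE 0.40). Without the length trend it was 1.02. Tgfb1i1, which encodes the paxillin relative Hic-5, had 79.9 and 66.2 CPM in WT against 121, 162 and 124 for KO (0.89, SE 0.33), and without the length trend 0.75. Paxillin's own gene overlapped between the groups, as given above. Ptk2, which encodes focal adhesion kinase, also overlapped, at 44.2 and 85.0 CPM in WT against 74.6, 129 and 100 for KO.

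Among 17 actin linkers of adhesions 15 were positive and 5 lay above WT in all 3 KO libraries, with a median of 0.65, where 49.4% and 13.5% of all genes did so. Of the 17, 6 are over 6 kb, among them 3 of those 5. Enah, an actin polymerase relative of VASP that binds zyxin, had 19.3 and 18.4 CPM in WT against 54.8, 89.3 and 46.1 for KO, which is 1.75 on the log2 scale (SE 0.46; DESeq2 adjusted p = 0.0312). With the length trend removed it was 0.42. Tns1, which encodes the integrin-binding tensin 1, had 93.8 and 102 CPM in WT against 181, 259 and 166 for KO, and its log2 fold change of 1.04 (SE 0.35) was -0.16 once the length trend was removed. Among 15 genes of the actomyosin motor and its regulators 12 were positive and 5 lay above, with a median of 0.87, beside the same 49.4% and 13.5%. Here 4 of the 15 are over 6 kb, among them 2 of those 5. Rock1, a kinase that activates myosin II, had 34.2 and 14 CPM in WT against 69.4, 102 and 46.4 for KO (1.59, SE 0.58). Leaving out WT replicate 1 or 2 gave 2.34 or 1.08, and removing the length trend gave 0.75. Ppp1r12a, the targeting subunit of myosin phosphatase, had 33.5 and 11.6 CPM in WT against 55.9, 80.4 and 48.8 for KO (1.45, SE 0.58), or 2.37 and 0.88 with WT replicate 1 or 2 left out and 0.94 with the length trend removed. The regulatory light chain Myl12a, a partner of both heavy chains, had 533 and 489 CPM in WT against 571, 506 and 637 for KO, a log2 fold change of 0.16 (SE 0.32).

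The mean profile of the 10 genes, in log2 CPM centred on each gene, was -1.14 and -0.39 in WT replicates 1 and 2 and 0.45, 0.74 and 0.33 in KO replicates 1, 2 and 3. Among 13697 other genes with a mean of at least 20 scaled reads, the 5 closest to it were Map4, Hdlbp, Fgfr1, Ncl and Cltc, at root mean square distances of 0.072 to 0.120 over the 5 libraries. Their longest annotated transcripts, of any transcript type, run from 5.04 to 8.20 kb and may not be the isoforms made in the leaflet. Within the set Zyx lay closest to the mean profile (0.261) and Tln2 farthest (1.049).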

How the data were processed

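Libraries were made from total RNA with the SMART-Seq v4 kit, which does not mark strand, per the labels' protocols. The submitters' processing notes name FastQC 0.11.5, cutadapt 1.11, HTSeq and DESeq2, with the builds GRCm38 and mm10. No aligner is named in them or in the file. The authors deposited whole-number counts per gene and library, and their own log2 fold changes and adjusted p-values of KO against WT, per the file headers.

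Counts were filtered with filterByExpr, scaled by TMM and compared with edgeR 4.0.16 (quasi-likelihood, robust, two-sided, Benjamini-Hochberg over all genes, threshold 0.05) in R 4.3.3. Steps were tested on simulated data. SE values rest on few degrees of freedom. DESeq2 1.42.0, limma 3.58.1, other scalings, no filter, left-out libraries and removal of a lowess trend with transcript length (GENCODE M21) were alternatives. The 10 genes and the lists were chosen with earlier results of these data known. Named partners are those with the 2 smallest p of each list. Myh14, Lims2, Crk, Ptk2, Myl12a and the genes overlapping a member were chosen after their values were seen. Replicates are numbered in order of deposit.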

Additional observations from a re-analysis of the deposited data

How the results depend on the processing

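In edgeR 0 of 14244 genes were called, with 832 at an unadjusted p under 0.05. DESeq2 called 376 genes, of which 1 was in the set (Myh10, log2 fold change 1.94), limma-voom 0, and edgeR 0 to 245 with 1 library left out, the most without WT replicate 1. Members called stayed at 0 in every edgeR fit. Members above WT in all KO libraries numbered 6, or 6 to 9 with 1 library left out, and 2 with the length trend removed. The shares of all genes above were 13.5%, 16.9% to 30.6% and 9.28% in the same order. Their median log2 fold change of 1.03 ran from 0.74 to 1.5 with 1 library left out and was 1.67 in the 3 libraries that share a title code, where 9 members lay above WT, as did 41.2% of all genes. Scaling by library totals moved the median of all genes from -0.01 to 0.10 and that of the set to 1.17. With 1 library left out, Actn1 ran from -0.34 to 2.86, Actn4 from -0.22 to 1.41, Pxn from -0.49 to 1.59 and Ilk from -0.32 to 0.29, and all 4 turned sign without WT replicate 1. The sign of Ilk turned as well without KO replicate 2 (0.07), with library totals (0.12), in limma-voom (0.001) and with the length trend removed (0.09). The differences in paralog balance ran from -1.26 to 2.34 for Myh9 to Myh10, from -2.26 to 1.20 for Tln1 to Tln2 and from -0.17 to 1.41 for Actn1 to Actn4 with 1 library left out, and turned without WT replicate 1, WT replicate 2 and WT replicate 1. Apart from the length trend and the left-out libraries, where the genes tested, the scale or the samples differ by construction, the cause was not tested. No paired analysis was possible because the groups share fewer than 2 numbers or title codes. The code IR28N, whose meaning the labels do not give, occurs for WT replicate 1 and for KO replicates 1 and 2, and a comparison within it is the one of 3 libraries above. Each member had at least 100 reads in each library, but reads of an amplified library are not independent molecules, and how far depth limits these values was not tested.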
